A study of Mus musculus with 51 samples.

Results

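The maternal and paternal read counts of H3K36me3 were compared at the autosomal peaks of the extra-embryonic ectoderm (ExE), the trophoblast tissue that lies above the epiblast and later contributes to the placenta. All 12871 autosomal peaks of the ExE H3K36me3 allelic table were taken, of 13369 peaks in that table. Of these, 7980 were tested because the maternal or the paternal count of some wild-type library reached 20 reads, and the other 4891 were too shallow. The libraries were 4 of the 51 in the series. They came from wild-type E6.5 hybrid embryos, 2 libraries from B6/CAST and 2 from CAST/B6, where B6 is C57BL6/Babr, CAST is CAST/EiJ and the mother is written first. Each library was made from a pool of manually dissected ExE, and the chromatin of a pool was shared between antibodies against H3K36me3, H3K4me3 and H3K27me3 and an input. Epiblast pools of the same crosses served as the other tissue. In a further group, matDKO/CAST, mothers of mixed B6/129 background carried floxed Dnmt3a and Dnmt3b and a Zp3 Cre that is active in the growing oocyte, so that oocyte DNA methylation was ablated, and CAST males were the fathers. A library is a pool, so each p-value of a cross rests on 2 pools. The spread was partly shared over all peaks, and the 2 allele columns of a pool were fitted as separate. The sex of the embryos in a pool was not given in the sources used here.

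H3K36me3 is deposited in the body of genes by SETD2, which travels with elongating RNA polymerase II, so that the mark lies over the transcribed part of a gene. Counting its reads by parent therefore reads which parental copy of a gene body carries the mark. Imprinted genes are those whose parental copies are used unequally. Canonical imprints rest on DNA methylation set in the germ line, and noncanonical imprints, found in extra-embryonic tissue, start from H3K27me3 on the maternal copy. The reciprocal crosses separate parent from strain: a bias that follows the parent keeps its sign when the cross is turned, and a bias that follows the B6 or CAST sequence changes it. The antibody signal has no strand. Overlapping or antisense genes, such as Kcnq1 and Kcnq1ot1 or Igf2r and Airn, share their reads and cannot be told apart.

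Promoters of some biased genes are printed here, because a mark on the gene body is set against H3K4me3, the mark of active promoters, further on. They were chosen with the values known. Each window runs from 250 bases before to 50 bases after a transcription start in RefSeq (GRCm38.p6). It is given 5′ to 3′ on the strand of the gene, with every CpG in capitals. Grb10 appears at a pair of starts.
Slc38a4, minus strand, chr15:97055907-97056206: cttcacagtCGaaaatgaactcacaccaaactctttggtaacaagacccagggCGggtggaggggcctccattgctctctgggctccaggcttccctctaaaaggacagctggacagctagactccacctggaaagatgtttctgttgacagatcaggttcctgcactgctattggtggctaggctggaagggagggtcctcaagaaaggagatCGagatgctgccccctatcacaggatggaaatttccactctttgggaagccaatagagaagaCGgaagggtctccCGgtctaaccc
Sfmbt2, plus strand, chr2:10370201-10370500: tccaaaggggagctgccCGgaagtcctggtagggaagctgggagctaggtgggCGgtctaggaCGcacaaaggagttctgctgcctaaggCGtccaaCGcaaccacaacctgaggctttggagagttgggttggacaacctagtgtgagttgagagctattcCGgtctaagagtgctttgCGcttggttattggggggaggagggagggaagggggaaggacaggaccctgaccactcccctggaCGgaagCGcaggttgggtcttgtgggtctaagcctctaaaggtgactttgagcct
Gab1, minus strand, chr8:80880470-80880769: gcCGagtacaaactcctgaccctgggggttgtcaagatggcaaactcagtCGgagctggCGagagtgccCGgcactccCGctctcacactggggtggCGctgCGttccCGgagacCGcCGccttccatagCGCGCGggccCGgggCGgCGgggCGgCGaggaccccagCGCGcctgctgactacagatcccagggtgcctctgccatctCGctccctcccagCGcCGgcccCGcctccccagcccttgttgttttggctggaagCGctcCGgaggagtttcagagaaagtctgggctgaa
Kcnq1ot1, minus strand, chr7:143296498-143296797: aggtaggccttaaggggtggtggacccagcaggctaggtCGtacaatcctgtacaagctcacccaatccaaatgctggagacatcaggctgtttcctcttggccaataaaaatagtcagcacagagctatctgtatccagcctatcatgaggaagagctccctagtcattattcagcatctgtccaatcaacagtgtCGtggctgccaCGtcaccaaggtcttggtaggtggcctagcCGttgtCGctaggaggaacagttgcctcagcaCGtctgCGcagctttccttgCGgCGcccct
Grb10 upstream start, minus strand, chr11:12037371-12037670: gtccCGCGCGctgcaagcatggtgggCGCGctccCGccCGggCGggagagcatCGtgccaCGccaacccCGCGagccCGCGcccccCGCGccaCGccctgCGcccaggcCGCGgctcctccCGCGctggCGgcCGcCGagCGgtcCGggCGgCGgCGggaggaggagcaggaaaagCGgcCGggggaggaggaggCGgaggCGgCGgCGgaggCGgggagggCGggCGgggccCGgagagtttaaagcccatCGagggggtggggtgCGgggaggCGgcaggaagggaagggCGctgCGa
Grb10 downstream start, minus strand, chr11:12027922-12028221: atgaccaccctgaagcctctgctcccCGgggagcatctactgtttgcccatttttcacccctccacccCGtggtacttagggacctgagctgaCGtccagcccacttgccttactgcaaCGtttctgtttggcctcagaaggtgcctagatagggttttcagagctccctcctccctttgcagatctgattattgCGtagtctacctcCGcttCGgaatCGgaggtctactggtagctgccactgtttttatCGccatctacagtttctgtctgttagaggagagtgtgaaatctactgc
Meg3, plus strand, chr12:109540746-109541045: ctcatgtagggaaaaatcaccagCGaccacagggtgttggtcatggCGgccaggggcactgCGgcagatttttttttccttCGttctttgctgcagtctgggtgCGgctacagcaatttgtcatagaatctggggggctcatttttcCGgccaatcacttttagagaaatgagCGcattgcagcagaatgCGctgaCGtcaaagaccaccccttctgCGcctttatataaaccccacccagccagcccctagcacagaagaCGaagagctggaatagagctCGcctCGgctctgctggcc
The Slc38a4 window held 5 CpG, the Sfmbt2, Kcnq1ot1 and downstream Grb10 windows 9 each, Meg3 13, Gab1 26 and the upstream Grb10 window 45. The letters TGCCGC, the core recognised by the imprint-protecting zinc finger protein ZFP57, were searched on both strands. They occurred once in the upstream Grb10 window and once in the Meg3 window, and in none of the other printed windows. Of 32851 RefSeq promoters of the same length, 11.6% held these letters. Of 49 genes named for their results, 34 had a promoter window.

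The labelled tissue was checked against marker genes. Over 10 trophoblast markers such as Cdx2, Elf5 and Tfap2c, the mean H3K36me3 signal, scaled for length and depth (RPKM, from all reads without regard to allele), was 1.13 to 1.53 in the 4 ExE libraries and 0.60 to 0.72 in the 4 epiblast libraries. Over 9 epiblast markers such as Pou5f1, Otx2 and Fgf5 it was 0.76 to 1.11 in ExE and 1.30 to 1.75 in epiblast. In every ExE library 7 of the 10 trophoblast markers were above every epiblast library, and 5 of the 9 epiblast markers were below, while Dnmt3b was at 2.32 to 3.74 in ExE and 1.94 to 2.89 in epiblast. Markers of visceral endoderm, the cell layer that wraps the ExE, were also high in ExE at 1.13 to 1.78, against 0.52 to 0.65 in epiblast, and 8 of the 10 were above every epiblast library, with Apob at 2.47 to 4.35. The part of visceral endoderm in the values that follow was not tested. Markers of the maternal decidua lay at 0.22 to 0.44 and those of blood at 0.30 to 0.55, near the mean of about 0.45 of all 1 kb windows, and the haemoglobin genes Hba-a1 and Hbb-bs at 0 to 0.21. Parental bias could be tested in 8 of the trophoblast, 6 of the epiblast, 8 of the visceral endoderm and 1 of the blood markers, and none of these genes passed the joint test (edgeR, adjusted p below 0.05). Depth was 1491356 to 2109182 allelic autosomal reads per library, and the paternal share of all reads was 48.6% and 49.0% in B6/CAST and 51.2% and 51.1% in CAST/B6. In pooled tissue, fewer cells with the mark and less mark per cell cannot be told apart.

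Parental bias was rare. At an adjusted p-value below 0.05 in each cross on its own (edgeR's quasi-likelihood test, Benjamini-Hochberg adjustment), 20 of 7980 peaks favoured the same parent in both crosses. The paternal allele was higher at 17 of them (0.213%) and the maternal allele at 3 (0.0376%). Strain bias was commoner, at 88 peaks, of which 44 favoured B6 and 44 favoured CAST. A joint fit over all 8 allele columns, with terms for cross and strain, called 32 peaks paternal (0.401%) and 15 maternal (0.188%), and contained all 20. DESeq2 called fewer, 17 paternal and 3 maternal peaks in the joint fit and 11 peaks in both crosses. Over all tested peaks the joint log2 difference, paternal minus maternal, ran from −0.54 at the first percentile to 0.59 at the 99th, and 97.1% of peaks lay within 0.5 of 0. All 20 imprinted peaks lay within 1 Mb of a gene on the list of 109 known or putative imprinted genes drawn up in the study's supplement, as did 521 of the 7980 tested peaks (6.53%). That list was in part drawn from these embryos, so this count is not independent of the peaks. Without B6/CAST replicate 1 the count of 20 became 12, and 11 of the 20 were called whichever library was left out. All 20 kept the sign of both crosses in each of these fits. Unlike the main test, these fits pooled the spread over both crosses, since 1 cross was left with 1 library. With all 4 libraries the pooled spread also gave 20 peaks.

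**Figure D1:**
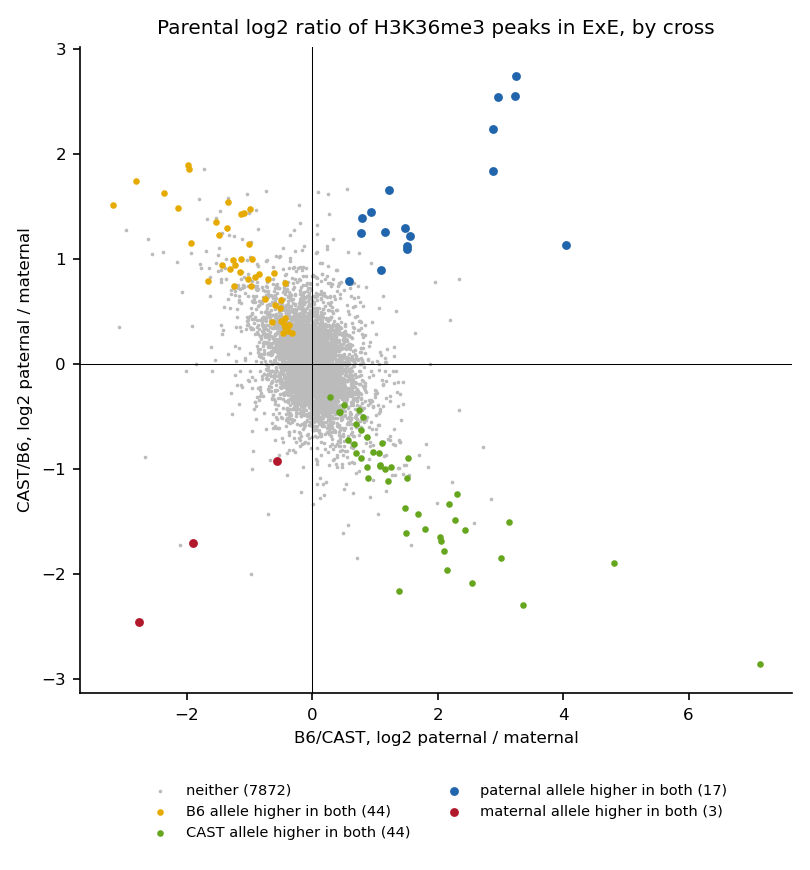
Log2 difference of paternal and maternal H3K36me3 reads at each of 7980 peaks in B6/CAST (x axis) and CAST/B6 (y axis), where 1 point is a peak and colours mark the 17 paternal, 3 maternal and 88 strain-specific peaks. Peaks that favoured the same parent in both crosses sit in the upper right or lower left, and strain-specific peaks in the other corners.

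Sfmbt2, which encodes a Polycomb-related protein needed for trophoblast, gave the most paternal reads of any imprinted gene. Its body was covered by 3 peaks on chromosome 2. The first, chr2:10316000-10483500 (2.18% exon, 83.9% intron), held 1013 paternal and 126 maternal reads in B6/CAST replicate 1 and 765 and 126 in replicate 2. In CAST/B6 it held 869 and 170 reads in replicate 1 and 656 and 139 in replicate 2. Every library was thus strongly paternal, with shares of 82.5 to 88.9% and a mean of 85.2% ± 2.8 (SD, n = 4). The other 2 peaks, chr2:10497500-10548000 and chr2:10555000-10600500, had paternal shares of 88.7% ± 2.3 and 86.9% ± 1.9. The log2 difference of the first peak was 2.89 ± 0.09 (SE, adjusted p 1.09e-210) in B6/CAST and 2.24 ± 0.09 (adjusted p 1.92e-135) in CAST/B6. Those of the other 2 were 3.25 and 2.97 in B6/CAST and 2.74 and 2.54 in CAST/B6, so that the bias ran over the length of the gene. The uncharacterised gene Gm13261 shares the first peak.

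Slc38a4, an amino acid transporter of the placenta, lay under 1 peak at chr15:96984000-97055000. It held 215 paternal and 79 maternal reads in B6/CAST replicate 1, 150 and 59 in replicate 2, 235 and 86 in CAST/B6 replicate 1, and 155 and 65 in CAST/B6 replicate 2. The 4 shares were close together, at 70.5 to 73.2% paternal, and the log2 difference was 1.47 ± 0.15 (adjusted p 6.01e-21) and 1.30 ± 0.14 (adjusted p 6.1e-17) in the 2 crosses. Maternal reads made up 27.9% on average, against 14.8% at the first Sfmbt2 peak. Slc38a4 is counted here outside the canonical loci, with the noncanonical class. The paper, however, describes a maternal germline methylation mark at its promoter. It proposes mainly canonical imprinting in embryonic lineages and noncanonical imprinting in extra-embryonic ones.

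Gab1, an adaptor of growth factor receptors required in the placenta, had 1 peak at chr8:80759000-80873500, 91.7% of it intron. The reads were 606 paternal and 192 maternal, and 408 and 178, in B6/CAST, and 478 and 207, and 347 and 155, in CAST/B6. The shares of 69.1 to 75.9% did not reach the Sfmbt2 values in any library. The log2 difference was 1.52 ± 0.09 (adjusted p 4.4e-55) in B6/CAST and 1.12 ± 0.10 (adjusted p 1.23e-27) in CAST/B6.

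Jade1, a subunit of histone acetyltransferase complexes, lay under chr3:41555000-41633000 together with Gm31266 and the end of Sclt1. It held 433 paternal and 203 maternal reads in B6/CAST replicate 1, 316 and 251 in replicate 2, 428 and 158 in CAST/B6 replicate 1 and 277 and 125 in CAST/B6 replicate 2. B6/CAST replicate 2 was the weakest at 55.7% paternal, below the 68.1 to 73.0% of the other 3 libraries. The log2 difference was 0.78 ± 0.10 in B6/CAST (adjusted p 1.29e-13) and 1.25 ± 0.11 in CAST/B6 (adjusted p 4.96e-28). The call was lost when B6/CAST replicate 1 was left out.

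Smoc1, a secreted calcium-binding protein, had 3 shallow imprinted peaks on chromosome 12. The largest, chr12:81101000-81146000, held 132 paternal and 86 maternal reads, and 75 and 59, in B6/CAST, and 128 and 60, and 82 and 56, in CAST/B6, or 61% ± 5.1 paternal. The flanking peaks, chr12:81014000-81041000 and chr12:81151500-81161000, had paternal shares of 67.4% ± 8.7 and 69.4% ± 5.9. All 3 calls were lost without B6/CAST replicate 1, that of the largest also without CAST/B6 replicate 1, and that of the last peak whichever library was left out. All 3 were lost in B6/CAST when each library was fitted as a block (adjusted p 0.0797, 0.0609 and 0.0872 in the order of the chromosome, edgeR). Summed over the gene, where the depth was greater, the joint log2 difference of Smoc1 was 0.88 ± 0.08 (adjusted p 5.5e-22).

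Platr20, a noncoding RNA gene first catalogued for its expression in pluripotent cells, had a pair of peaks. At chr11:51188500-51200000 the paternal reads were 32, 24, 32 and 28 in the 4 libraries and the maternal reads 10, 15, 12 and 6. At chr11:51206000-51224000, shared with Gm12569, they were 46, 32, 39 and 45 against 21, 17, 25 and 18. Both peaks were paternal in every library (61.5 to 82.4% and 60.9 to 71.4%), but on few reads. The adjusted p was 0.015 and 0.00118 at the first peak and 0.0055 and 0.0356 at the second, for B6/CAST and CAST/B6. Both calls were lost without B6/CAST replicate 1 and without CAST/B6 replicate 2, and that of the second peak also without CAST/B6 replicate 1. That of the first was lost under the block (adjusted p 0.0775 in B6/CAST, edgeR).

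Gm9873, an uncharacterised gene 64 kb from Zfp64, overlapped the last of the paternal peaks outside the canonical loci, chr2:169003000-169038500, which lies 96.2% outside annotated genes. Its reads were 256 paternal and 117 maternal, and 144 and 71, in B6/CAST, and 132 and 60, and 103 and 34, in CAST/B6. The shares were 67.0 to 75.2%, and the log2 difference was 1.16 ± 0.13 (adjusted p 2.17e-15) and 1.26 ± 0.17 (adjusted p 2.44e-10). The call was kept in all 4 fits that left out 1 library.

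The other 5 paternal peaks lay at canonical loci. Snrpn and Snurf, which encode a splicing protein and its upstream reading frame in the Prader-Willi region, shared chr7:59967000-60003000 with Snhg14. That peak held 116 paternal and 13 maternal reads, and 100 and 11, in B6/CAST, and 97 and 17, and 76 and 11, in CAST/B6. Its shares of 85.1 to 90.1% overlapped those of the Sfmbt2 peaks, and the log2 difference was 3.23 ± 0.25 (adjusted p 2.15e-35) and 2.55 ± 0.25 (adjusted p 7.1e-22).

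Kcnq1ot1, the noncoding RNA that silences its neighbours on the paternal chromosome, lies antisense within the potassium channel gene Kcnq1. Its peak, chr7:143237500-143298000, was 97.6% exon by annotation, since the RNA is a single long exon. The paternal and maternal reads were 255 and 27, and 167 and 33, in B6/CAST, and 201 and 58, and 180 and 44, in CAST/B6. Shares were 83.5 to 90.4% in B6/CAST and 77.6 to 80.4% in CAST/B6, without overlap between the crosses, and the joint fit gave a strain term of 0.52 (CAST minus B6, adjusted p 0.00253, edgeR) beside a parent term of 2.35 ± 0.12 (adjusted p 4.47e-65).

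Peg10, a retrotransposon-derived gene essential for the placenta, and its neighbour Sgce, a sarcoglycan, met at chr6:4737000-4761500. This peak had 86 paternal and 3 maternal reads, and 60 and 6, in B6/CAST, but 61 and 28, and 38 and 15, in CAST/B6. Shares of 96.6% and 90.9% in B6/CAST stood against 68.5% and 71.7% in CAST/B6. The log2 difference was 4.05 ± 0.35 against 1.13 ± 0.25, and the strain term, 1.46 (adjusted p 5.36e-07, edgeR), was the highest of the 20 peaks. In CAST/B6 the call needed both libraries.

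Peg3 and Usp29, a zinc finger protein and a deubiquitinase gene that share a promoter region, lay under chr7:6701000-6796000. The reads were 279 paternal and 123 maternal, and 235 and 67, in B6/CAST, and 270 and 137, and 241 and 92, in CAST/B6, or 71.5% ± 4.9 paternal. The log2 difference was 1.51 ± 0.13 (adjusted p 4.24e-30) and 1.10 ± 0.12 (adjusted p 1.71e-16). Igf2, the fetal growth factor, lay with Igf2os and Gm49394 under chr7:142650500-142672500. With 56, 23, 41 and 35 paternal and 19, 9, 15 and 16 maternal reads it was the shallowest canonical locus, at 72.1% ± 2.6 paternal. B6/CAST gave an adjusted p of 5.39e-05 and CAST/B6 one of 0.00388, and the call was kept only in the fit that left out B6/CAST replicate 2.

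Each of the 3 maternal peaks was a single locus. Meg3, Rian and Mirg, noncoding RNA genes of the Dlk1-Dio3 domain transcribed from the maternal copy, shared chr12:109510500-109751000 with Rtl1, a retrotransposon-like gene transcribed from the other strand. The reads were 286 paternal and 1990 maternal, and 216 and 1563, in B6/CAST, and 305 and 1500, and 208 and 1183, in CAST/B6. No library was above 16.9% paternal. The log2 difference was −2.75 ± 0.07 (adjusted p 1.67e-313) and −2.45 ± 0.07 (adjusted p 1.84e-246).

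Grb10, an adaptor that restrains insulin and growth factor signalling, lay under chr11:11890000-12036000, which also reaches into Ddc. It held 117 paternal and 445 maternal reads, and 76 and 313, in B6/CAST, and 151 and 483, and 118 and 356, in CAST/B6. Paternal shares of 19.5 to 24.9% were below 25% in all 4 libraries, and the log2 difference was −1.90 ± 0.12 (adjusted p 3.26e-56) and −1.70 ± 0.10 (adjusted p 5.39e-57). H13, a signal peptide peptidase, shared chr2:152670500-152712500 with Mcts2, a retrogene within its intron. Its bias was milder, with 127 paternal and 213 maternal reads, and 101 and 143, in B6/CAST, and 112 and 208, and 83 and 145, in CAST/B6. The log2 difference was −0.57 ± 0.13 (adjusted p 0.000843) and −0.92 ± 0.14 (adjusted p 7.08e-09), and the call was lost without B6/CAST replicate 1.

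**Figure D2:**
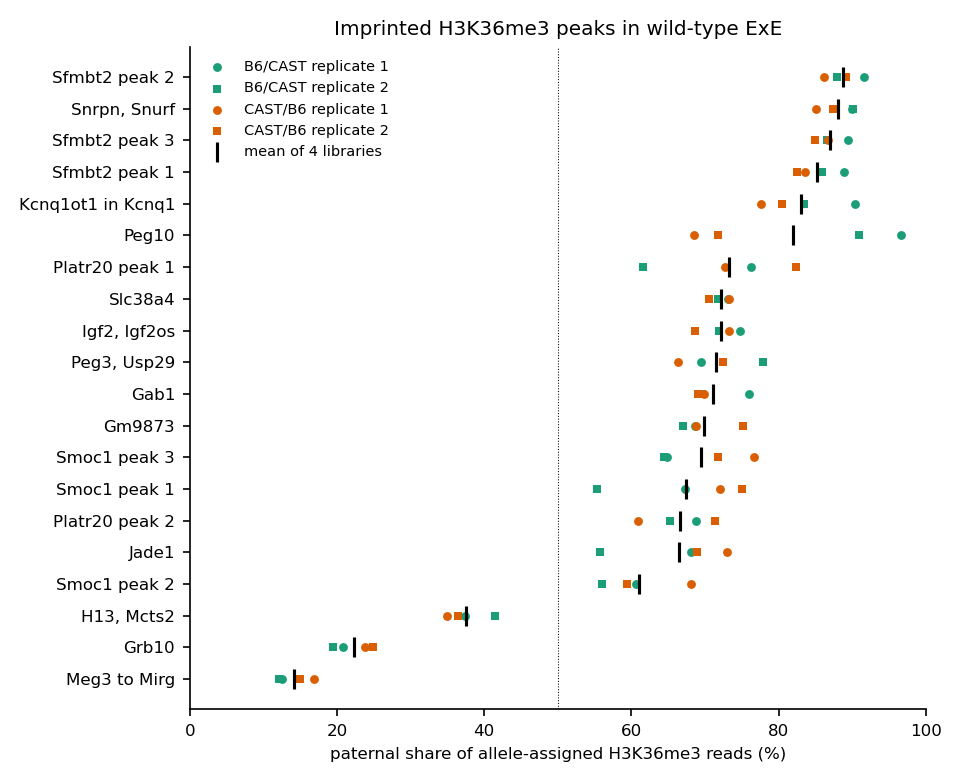
Paternal share of H3K36me3 reads (%) at each of the 20 imprinted peaks, with the cross shown by colour, the replicate by symbol, a bar for the mean of 4 libraries and a dotted line at equal alleles. All 4 libraries of the 17 paternal peaks sit above 50%, from 55.3% at a Smoc1 peak to 96.6% at Peg10, and all 4 of the 3 maternal peaks below it.

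Just inside the threshold of 0.05 in both crosses was the third Smoc1 peak (adjusted p 0.0484 in B6/CAST), and just outside were peaks such as that of Gm32885, an uncharacterised gene 101 kb from Slc38a4, at 1.96 in B6/CAST and 0.79 in CAST/B6 (adjusted p 0.057). With each library as a block this peak passed in both crosses (adjusted p 0.000222 and 0.044). Gm32885 was 1 of 27 peaks that passed the joint fit only, 15 paternal and 12 maternal. Of these, 17 lay within 1 Mb of a listed gene (63.0%). Cd81, a tetraspanin of the Kcnq1 domain, was maternal by −2.10 in B6/CAST and −1.72 in CAST/B6 (adjusted p 0.074 in CAST/B6). The insulin-degrading enzyme gene Ide was at −0.09 in B6/CAST and 0.92 in CAST/B6, so that the joint call rested on 1 cross. The same held for Zfp64, a zinc finger gene, at 0.23 and 1.12. A peak on chromosome 10 with no overlapping gene had opposite signs in the crosses, at −3.18 and 1.51, and still passed the joint fit.

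Read by gene rather than by peak, the counts of all peaks assigned to a gene were summed and 11554 genes were tested in the joint fit. Paternal bias was called in 36 (0.312%) and maternal bias in 26 (0.225%), with 44 distinct sets of peaks among these 62 genes, since neighbours share peaks. DESeq2 called 26 paternal and 11 maternal genes. With only peaks of exactly 1 gene, 28 of 3769 genes were called by edgeR. Of the 109 listed genes 49 could be tested. The paternal allele was higher in 20 and the maternal allele in 12, and 17 did not pass. These counts stand beside the shares of all genes just given, and the list was made of imprinted loci and in part drawn from these embryos. In 27 of the 32 the higher allele was the one listed as expressed.

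The noncanonical class of the list held 7 genes, and all 7 were paternal. The study chose this class on these samples and drew it from paternal loci, with Cd81 in another class, so the count is no independent evidence of its direction. On the log2 scale the joint differences were 2.68 ± 0.05 for Sfmbt2, 1.39 ± 0.10 for Slc38a4, 1.32 ± 0.07 for Gab1, 1.17 ± 0.16 for Platr20, 1.02 ± 0.07 for Jade1, 0.88 ± 0.08 for Smoc1 and 0.64 ± 0.08 for Zfp64. Sfmbt2 stood apart from the rest. From Slc38a4 down to Smoc1, neighbours in this order differed by less than the sum of their errors. At Zfp64 the crosses disagreed in size. The reads were 293 paternal and 264 maternal, and 215 and 184, in B6/CAST, and 256 and 119, and 194 and 93, in CAST/B6.

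Among 17 tested genes listed as paternally expressed under a maternal germline methylation mark, 10 were paternal, 3 maternal and 4 not called. Beside Snrpn, Snurf, Kcnq1ot1, Peg10, Sgce, Peg3 and Usp29 these included Zdbf2, a zinc finger gene, on 16, 19, 25 and 10 paternal and 3, 5, 7 and 9 maternal reads (1.61 ± 0.35, adjusted p 0.00131). Fkbp6, an immunophilin gene of the germ line, was far more paternal in B6/CAST, with 149 paternal and 33 maternal, and 93 and 25 reads, than in CAST/B6, with 70 and 58, and 59 and 34. Impact, a translation regulator, went the other way, with 151 and 130, and 87 and 109 reads in B6/CAST and 132 and 62, and 93 and 41, in CAST/B6. For both genes the joint call held chiefly through 1 cross. Zdbf2 and Sgce also passed in B6/CAST only (adjusted p 0.307 and 0.275 in CAST/B6).

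Of 65 genes listed as maternally expressed 19 could be tested, and 8 of these were maternal, 1 was paternal and 10 did not pass. Beside Meg3, Grb10 and H13, Cd81 was at −1.91 ± 0.37 (adjusted p 8.54e-05), Zim1, a zinc finger gene next to Peg3, at −1.61 ± 0.37 (adjusted p 0.00289), Arid1b, a chromatin remodelling subunit, at −0.47 ± 0.12 (adjusted p 0.0117), Ppp1r9a, a phosphatase regulator beside Peg10, at −0.29 ± 0.07 (adjusted p 0.0081) and Igf2r, the receptor that clears IGF2, at −0.27 ± 0.06 (adjusted p 0.00525). Zim1 passed in CAST/B6 only (adjusted p 0.403 in B6/CAST), and Arid1b and Ppp1r9a in B6/CAST only (adjusted p 0.648 and 0.519 in CAST/B6). Igf2r also passed in B6/CAST alone (adjusted p 0.0326, and 0.177 in CAST/B6). Cd81 and Zim1 rested on 3 to 7 and 2 to 8 paternal reads per library. Igf2r was nearly even on many reads, with 361 paternal and 433 maternal, and 234 and 330, in B6/CAST, and 341 and 370, and 271 and 325, in CAST/B6. Its peak also covers Airn, the antisense RNA of the paternal copy.

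In 5 called genes the higher allele was not the listed one. These were Kcnq1, Airn, Mcts2, Nap1l5 and Rtl1, and each shares its peaks with another gene (Kcnq1ot1, Igf2r, H13, Herc3 and Meg3, in that order). The values of Airn, Mcts2, Nap1l5 and Rtl1 are those of the shared peak and belong to no single gene. Kcnq1 also had a peak of its own, chr7:143392500-143394500, with 3 paternal and 12 maternal reads, and 6 and 5, in B6/CAST, and 5 and 9, and 1 and 7, in CAST/B6, too few to test. Igf2 and Igf2os shared the paternal peak described above.

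The listed genes with the most reads that did not pass were near even. Inpp5f, an inositol phosphatase, had 750 paternal and 851 maternal, and 589 and 622, reads in B6/CAST and 645 and 638, and 515 and 546, in CAST/B6, at −0.08 ± 0.05 on the log2 scale. Tbc1d12, a Rab GTPase regulator, was at 0.02 ± 0.06, Nap1l4, a histone chaperone, at −0.21 ± 0.07 (adjusted p 0.363), and Gnas and Nespas, the G protein gene and its antisense RNA, at −0.18 ± 0.09. Trappc9, at 0.02, held 1 maternal peak, chr15:72808000-72814000, which it shares with Peg13 (−1.78 ± 0.38, adjusted p 0.000883 in the joint fit, on 94 reads). It was at −2.66 in B6/CAST and −0.88 in CAST/B6 (adjusted p 0.567). Copg2, Zrsr1, Ube3a and Ddc were at −0.05, −0.11, 0.12 and −0.11, with errors of 0.09 to 0.10. These errors bound a bias of the whole gene body and not one of a short isoform such as that of Inpp5f or Gnas, whose reads are summed with the rest.

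**Figure D3:**
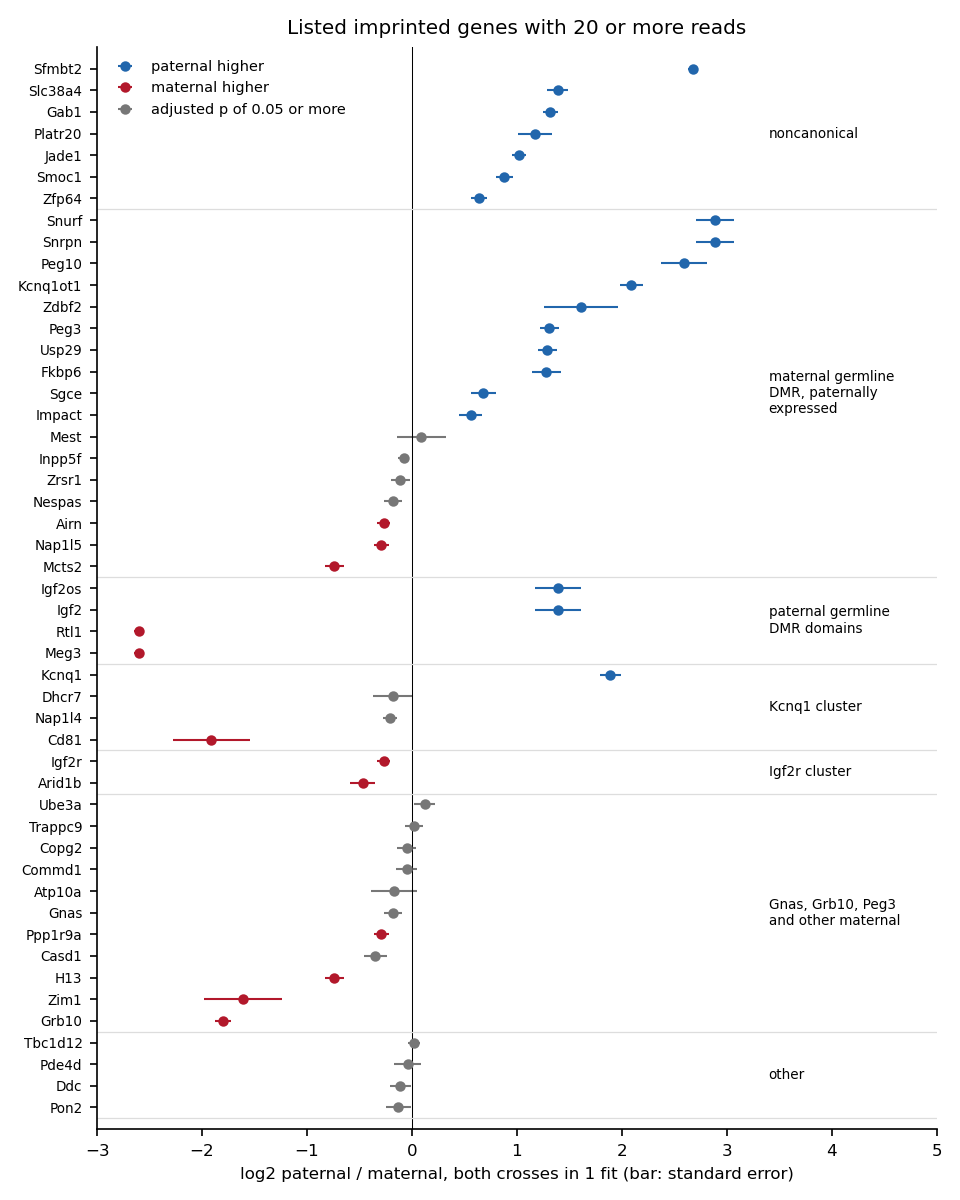
Joint log2 difference, paternal minus maternal, of H3K36me3 for the 49 listed genes tested, grouped by class of the list, with bars for the SE and colours for the allele called higher. In the noncanonical class all 7 genes lie right of 0, from Zfp64 at 0.64 to Sfmbt2 at 2.68, and Meg3 and Rtl1, which share a peak, lie at −2.60.

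A further 30 called genes were not on the list. Of these, 13 shared a peak with a listed gene, such as Rian with Meg3 or Gm13261 with Sfmbt2, and 8 of the other 17 lay within 1 Mb of one. Slc38a1, an amino acid transporter gene 352 kb from Slc38a4, was at 0.37 ± 0.07 (adjusted p 7.17e-05) and passed in CAST/B6 only (adjusted p 0.0771 in B6/CAST). Atp9a, a phospholipid flippase gene 151 kb from Zfp64, was at 0.59 ± 0.14 (adjusted p 0.0102) and passed in B6/CAST only (adjusted p 0.453 in CAST/B6). Plg, the plasminogen gene at the Igf2r cluster, was at −0.67 ± 0.15 (adjusted p 0.00289), a call that rested on B6/CAST, at −1.14 against −0.19 (adjusted p 0.81) in CAST/B6. Others lay farther than 1 Mb from any listed gene, among them 6 paternal genes (Btaf1, Fgfbp3, Ide, C330024D21Rik, Gm2381 and Zfp473). These genes were named after their values were seen. C330024D21Rik (1.88 and 0.01), Gm2381 (1.29 and 0.17) and Zfp473 (0.72 and 0.65) passed in B6/CAST only, with an adjusted p of 0.993, 0.908 and 0.282 in CAST/B6. Btaf1, a TBP-associated factor, and Fgfbp3 shared 1 peak at 0.14 in B6/CAST and 0.70 in CAST/B6, and Cdh3 (P-cadherin) and Colec12, a scavenger receptor, had opposite signs in the crosses. Cdh3 was at −1.13 in B6/CAST and 0.32 in CAST/B6 (adjusted p 0.293). Colec12, at −1.36 (adjusted p 5.74e-10) and 0.48 (adjusted p 0.0336), passed with opposite signs and so favoured the B6 allele in both crosses. Its joint parent term was −0.44 ± 0.11 (adjusted p 0.0162, edgeR).

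H3K4me3 at the same loci was read from the allelic H3K4me3 table of the same pools, which played no part in choosing the peaks. Of the 17 paternal H3K36me3 peaks 13 overlapped an H3K4me3 peak, and in 12 of these at least 1 such peak was above 60% paternal in every library. Of all tested peaks 69.9% overlapped an H3K4me3 peak, and 0.484% of those had one above 60% in every library. None of the 17 overlapped an H3K4me3 peak below 40% paternal in every library, which was also rare among all tested peaks with an H3K4me3 peak (0.125%). At the printed starts, the H3K4me3 peak was 94.5% ± 1.6 paternal at Slc38a4, 84.8% ± 3.1 at Sfmbt2, 97.4% ± 0.6 at Kcnq1ot1 and 5.5% ± 1.1 at Meg3 (SD, n = 4). The shares of the promoter mark lay above those of the gene body in every library at Slc38a4 (body 72.1% ± 1.3) and Kcnq1ot1 (body 83.0% ± 5.5), and overlapped them at Sfmbt2 (body 85.2% ± 2.8).

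Gab1 differed. At its annotated start, whose CpG-rich window is printed above, H3K4me3 was 49.0% ± 3.0 paternal, with libraries at 44.8 to 51.7%, while the body was 71.1% ± 3.2. A second H3K4me3 peak within the gene, chr8:80852500-80861000, was 94.1% ± 2.3 paternal, with libraries at 92.1 to 97.3%. Grb10 carried opposite promoters. At the upstream start, with 45 CpG, H3K4me3 was 8.3% ± 4.0 paternal on 145 reads, and at the downstream start, with 9 CpG, it was 95.2% ± 6.7 on 52 reads, under a body that was 22.3% ± 2.5 paternal. At H13 the body was maternal (37.5% ± 2.7 paternal) although the H3K4me3 peak at Mcts2 was 73.0% ± 4.9 paternal and that at the H13 start was 56.8% ± 7.1. Igf2r showed 14.2% ± 2.2 at its start and 93.0% ± 1.8 at that of Airn, under the nearly even body of 45.1% ± 2.7.

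H3K27me3, the Polycomb mark, overlapped 8 of the 17 paternal peaks and 26.1% of all tested peaks. In 3 of the 8 an H3K27me3 peak was above 60% paternal in every library, and in 1 of the 8 below 40%, against 1.3% and 0.336% of all tested peaks with an H3K27me3 peak. At the start of Sfmbt2 it was maternal, with 27 to 30.9% paternal reads, whereas beyond the end of the third Sfmbt2 peak, at chr2:10600000-10691500, it was 65.0 to 72.9% paternal. In the flanking blocks of the Kcnq1 domain it was paternal at 77.4% ± 0.7 and 83.9% ± 2.2, on the same parental copy as the Kcnq1ot1 body. Of the 3 maternal peaks 2 overlapped H3K27me3 peaks. The mark was 83.6% ± 7.8 paternal at Grb10, opposite to the body. The Meg3 peak overlapped an H3K27me3 peak at 82.8% ± 3.2 and another, at its far end, at 25.2% ± 1.9.

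**Figure D4:**
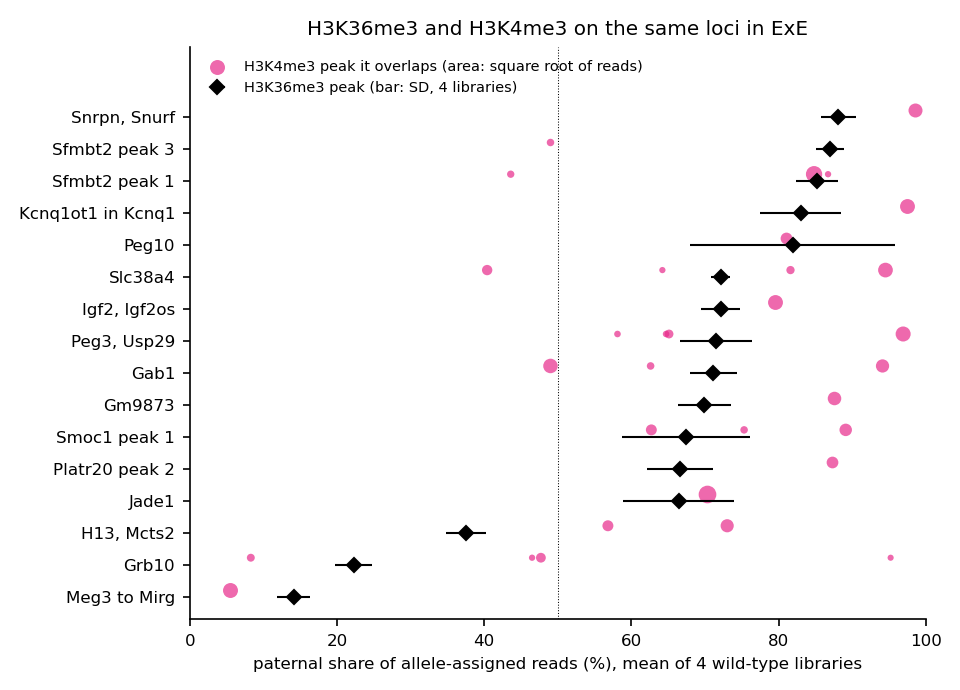
Paternal share of allele-assigned reads (%, x axis, mean of 4 wild-type libraries) for each imprinted H3K36me3 peak that overlaps an H3K4me3 peak (diamonds, with SD) and for the H3K4me3 peaks it overlaps (circles, area by the square root of their reads). At Gab1 the circles sit at 49.0%, 62.6% and 94.1%, on both sides of the diamond at 71.1%.

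Whether the bias differed from that in epiblast was tested at 4372 ExE peaks that matched an epiblast peak over at least 50% of both. Only 2 peaks differed, both more paternal in ExE (0.0457%). At Zfp64 (chr2:168918000-168969500) the parent term was 0.68 in ExE and 0.09 in epiblast, a difference of 0.59 (adjusted p 0.0187, edgeR). At Gnas and Nespas (chr2:174263500-174348000) this term was −0.18 in ExE and −0.80 in epiblast, a difference of 0.62 (adjusted p 0.0018), so that the maternal bias of epiblast was smaller in ExE. The calls depended on single libraries. Without B6/CAST epiblast replicate 2 no peak passed the threshold, and DESeq2 called 0 (210 peaks at an unadjusted p below 0.05 by edgeR).

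The ExE libraries of this test are those that chose the imprinted peaks. Such a match with at least 20 reads in an allele column existed for 6 of the 20 imprinted peaks, and the difference passed at none of these. Meg3 was 14.1% ± 2.2 paternal in ExE and 16% ± 2.8 in epiblast, Snrpn 88.1% ± 2.4 and 88.6% ± 6.5, and Kcnq1ot1 83.0% ± 5.5 and 80.3% ± 5.7. The other 14 were not tested, and 6 of these had no overlapping epiblast peak. Jade1 was 50.5% ± 1.2 paternal at the overlapping epiblast peak, which reaches farther into Sclt1, against 66.4% ± 7.5 in ExE. Gab1 was at 55.7% ± 7.0 against 71.1% ± 3.2, on an epiblast peak over part of the gene, and Peg10 at 56.9% ± 9.7 against 81.9% ± 13.9, on 3 to 19 epiblast reads per allele and library. The epiblast peaks inside the first 2 Sfmbt2 peaks were short and shallow, at 56.8% ± 6.3 and 61.1% ± 12.2, and that at Slc38a4 was 73.1% ± 4.6 paternal, against 72.1% ± 1.3 in ExE. In RPKM 16 of the 20 peaks were higher in every ExE library than in every epiblast library, as were 3675 of the 7980 tested peaks (46.1%), which were called in ExE and kept for their ExE reads. The first Sfmbt2 peak had 1.24 to 1.59 RPKM in ExE and 0.49 to 0.52 in epiblast, and the Gab1 peak 1.19 to 1.65 and 0.56 to 0.64. Snrpn was lower in ExE, at 0.61 to 1.13 against 1.21 to 1.37, and Grb10, Peg3 and Kcnq1ot1 overlapped.

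The maternal germline dependence of the bias was asked in matDKO/CAST, where the maternal strain is largely that of B6/CAST. H3K36me3 over Dnmt3a and Dnmt3b cannot check a deletion in the oocyte. Depth was lower, at 602816 and 1029936 allelic reads, and the methods add reads assigned to 129 to the maternal side. Over all peaks 26 were less paternal than in B6/CAST (0.326%) and 3 more paternal (0.0376%). Of these 29, 23 were not imprinted in wild type, and 129 sequence and the loss of oocyte methylation cannot be told apart there. The count of 29 depended on the test, with 11 by DESeq2 and 53 with each library as a block.

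Among the 17 paternal peaks 4 were less paternal in matDKO/CAST, all at canonical loci. Peg10 changed by −4.01 ± 0.50 (adjusted p 1.02e-06, edgeR) to a matDKO parent term of 0.03, with 20 and 37 paternal and 16 and 46 maternal reads in the 2 libraries. Snrpn changed by −3.0 ± 0.37 (adjusted p 1.02e-06) and held 31 and 49 paternal and 32 and 43 maternal reads. Kcnq1ot1 changed by −2.97 ± 0.26 (adjusted p 1.27e-10), with 61 and 112 against 76 and 129, and Peg3 by −1.17 ± 0.22 (adjusted p 0.0018). At these 4 loci both matDKO libraries were between 44.5 and 55.6% paternal. The B6/CAST libraries entered both the choice of these peaks and this difference, whereas the matDKO term uses none of them. The replicate block added Gm9873 (−0.77 ± 0.24, adjusted p 0.33 without and 0.0147 with the block).

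In 7 paternal peaks the reads were still paternal in the matDKO libraries themselves, the 3 of Sfmbt2 and those of Gab1, Slc38a4 and Jade1 and the second of Platr20. Over all peaks 36 were paternal (0.451%) and 65 maternal (0.815%) in matDKO/CAST, where parent and strain cannot be told apart since there is 1 cross. The first Sfmbt2 peak held 266 and 512 paternal and 55 and 77 maternal reads, a parent term of 2.69 ± 0.14 (adjusted p 5.28e-19) and a change of −0.20 ± 0.19. Gab1 held 169 and 320 against 64 and 139, a parent term of 1.41 ± 0.14 (adjusted p 9.61e-10) and a change of −0.10 ± 0.18. Slc38a4, at 0.98 ± 0.19 (adjusted p 0.00117), changed by −0.49 ± 0.25, which did not pass (adjusted p 1). The 3 Smoc1 peaks, the first Platr20 peak and Igf2 passed neither test, and their matDKO terms were 0.50 to 1.18.

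Of the maternal peaks, Grb10 moved by 1.66 ± 0.24 (adjusted p 2.04e-05) to −0.24 in matDKO/CAST, with 36 and 78 paternal against 62 and 85 maternal reads. Meg3 moved by 0.61 ± 0.15 (adjusted p 0.0489) but kept a term of −2.14 ± 0.11 (adjusted p 5.28e-19), with 106 and 156 against 442 and 852 reads. H13 was maternal at −0.92 ± 0.25 (adjusted p 0.0469) in matDKO/CAST and changed by −0.36 ± 0.30, with libraries at 43.1 and 26.2% paternal. Peaks on either side of H13 that were not imprinted in wild type were maternal in matDKO/CAST as well. Examples were chr2:144223000-144283500 at −2.52 and chr2:154790500-154908000 at −3.45. The matDKO/CAST group has no reciprocal cross, so its own terms cannot tell parent from strain. The part of strain at H13 was not tested.

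**Figure D5:**
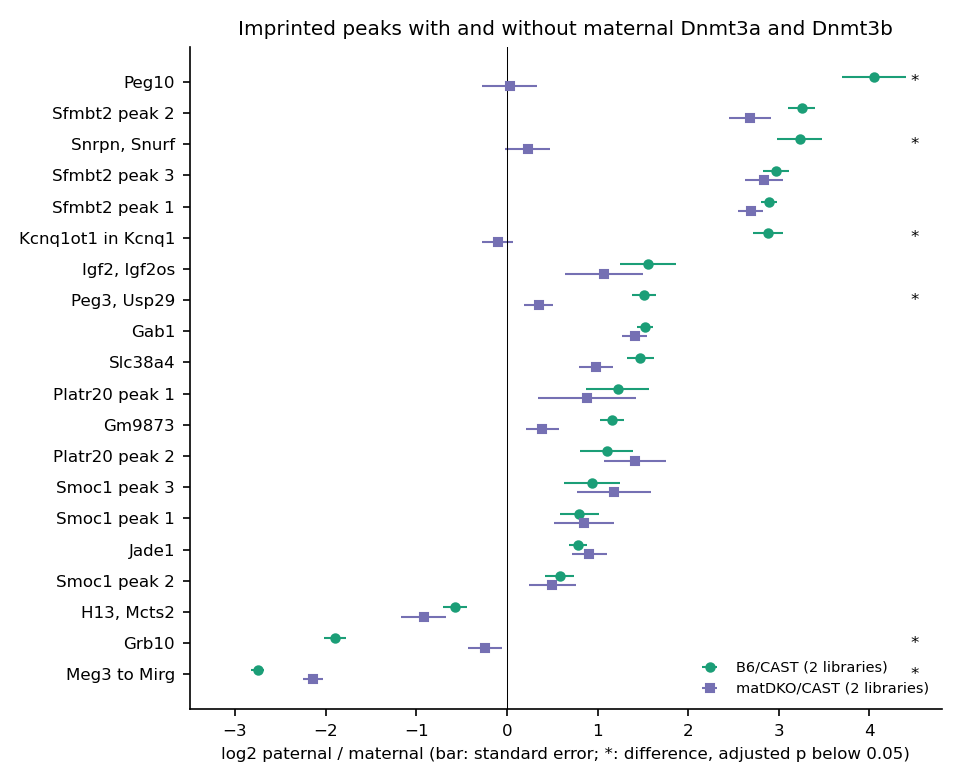
Parent term (log2 paternal minus maternal on the x axis, bars for the SE) of the 20 imprinted peaks in B6/CAST (circles) and matDKO/CAST (squares) ExE, with asterisks where the difference passed the test. Peg10, Snrpn, Kcnq1ot1 and Peg3 fell to between −0.10 and 0.35 in matDKO/CAST, while the 3 Sfmbt2 peaks stayed between 2.68 and 2.84.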

How the data were processed

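Allelic H3K36me3 was taken as deposited for ExE and epiblast of the wild-type crosses and of matDKO/CAST. The authors trimmed reads with Trim Galore 0.4.4 and aligned them with Bowtie2 2.3.2 (submitters' processing notes) to GRCm38 with B6 and CAST variants masked, and assigned reads to a parent by variant. The deposited allelic tables hold raw read counts per peak and allele. The authors called peaks per cross and tissue with chromstaR, and the score in their deposited peak lists was 0 for all 13877 and 10880 peaks, so it was not used. The deposited RPKM table holds 1 kb windows over all reads without regard to allele. Peak coordinates came from the start and end columns, since the names differed at 3789 peaks (28.3%), and genes from GENCODE vM21. There were 33 other columns of per-sample values that were not used.

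Maternal and paternal columns were compared with edgeR 4.0.16 (quasi-likelihood test, TMM factors, Benjamini-Hochberg adjustment, two-sided) in R 4.3.3, per cross and in a joint fit with cross and strain, after a minimum of 20 reads in an allele column. Tests were checked on simulated data. DESeq2 1.42.0 and other settings were alternatives. Both allele columns of 1 library derive from 1 chromatin sample, so a library is a true block. Their deviations correlated at r 0.103 in B6/CAST and 0.096 in CAST/B6 over 4454 peaks. Replicates differed by more than counting noise (chi-square per degree of freedom 1.09 to 1.16).

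The members and lists were chosen with earlier results of these data known. Named are every imprinted peak, the 10 genes with the smallest p per direction, listed genes that passed, the 10 listed genes with most reads that did not, and the noncanonical class. The list of imprinted genes came from the study's supplement. A result for 1 further gene is not reported here.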

Additional observations from a re-analysis of the deposited data

Results flagged for a closer look

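The strain term of the joint fit (CAST minus B6 allele, log2, tested against 0 by edgeR) passed at 4 imprinted peaks, so the paternal bias differed in size between the crosses. It was 0.33 at the first Sfmbt2 peak, −0.23 at Jade1, 1.46 at Peg10 and 0.52 at Kcnq1ot1. At Jade1 (adjusted p 0.0323, edgeR) the paternal shares were 68.1% and 55.7% in B6/CAST and 73.0% and 68.9% in CAST/B6. There the term leaned on B6/CAST replicate 2.

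The parent term differed between matDKO/CAST and B6/CAST, by the interaction of cross and parent, at 6 imprinted peaks. The differences were −4.01 at Peg10, −1.17 at Peg3, −3.0 at Snrpn, −2.97 at Kcnq1ot1, 1.66 at Grb10 and 0.61 at Meg3. Between ExE and epiblast the test of the difference passed at Zfp64 (0.59) and at Gnas and Nespas (0.62).

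Peaks on the X chromosome entered no comparison. At these 498 peaks 80.7 to 89.3% of reads were maternal in the 4 libraries, and the part of the sex of the pooled embryos was not tested.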

How the results depend on the processing

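Counts of calls depended on the threshold, the test and single libraries. For the 20 imprinted peaks, DESeq2 gave 11 (9 paternal, 2 maternal), an unadjusted p below 0.05 gave 42, and leaving out 1 library gave 12 to 19, with 12 without B6/CAST replicate 1. The joint fit on peaks gave 20 by DESeq2, 468 unadjusted and 33 to 40 without 1 library, against 47. On genes, 62 became 37 by DESeq2, 28 with peaks of exactly 1 gene, 629 unadjusted and 45 to 52 without 1 library. The 2 peaks that differed between tissues became 0 by DESeq2, 1 at an adjusted p below 0.01, 1 with a reciprocal overlap of at least 80%, 210 unadjusted and 0 to 3 without 1 library. It was 0 without B6/CAST epiblast replicate 2, and 1 without B6/CAST ExE replicate 2, CAST/B6 ExE replicate 1 or either CAST/B6 epiblast library. The 29 peaks that differed in matDKO/CAST became 11 by DESeq2, 19 at an adjusted p below 0.01, 389 unadjusted, and 10 to 36 without 1 library. The lower of these came without B6/CAST replicate 2, and 12 and 15 without B6/CAST replicate 1 and matDKO/CAST replicate 3. With the replicate block (each library as a block) 53 peaks differed, 47 of them less paternal, and 16 of the 20 imprinted peaks kept their call. The causes were not tested. Unadjusted counts and the pooled spread were chosen after seeing the data. With an added count of 1 in place of 0.5, all 20 log2 ratios moved by less than 1 SD. The fewest reads over the 4 libraries were 159 and 243 at the Platr20 peaks, 188 at the third Smoc1 peak and 214 at Igf2.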

Other observations

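H3K4me3 at the starts of listed genes is given in wild-type ExE and in matDKO/CAST. At Zdbf2, H3K4me3 was 70.8% ± 1.3 paternal in wild-type ExE (SD, n = 4) and 53.5% on average in matDKO/CAST. At the Airn start it was 93.0% ± 1.8 and 51.3%, and at the Igf2r start 14.2% ± 2.2 and 45.5%. At the downstream Grb10 start it was 95.2% ± 6.7 and 52.6%, and at the upstream start 8.3% ± 4.0 and 29.2%, the latter on 2 paternal and 6 maternal reads in one library and 1 and 2 in the other. In the noncanonical class it was 84.8% ± 3.1 and 87.2% at Sfmbt2, 94.5% ± 1.6 and 82.8% at Slc38a4, 87.2% ± 10.7 and 79.3% at Platr20 and 70.3% ± 7.7 and 66.1% at Jade1. The peak at the start of Zfp64, chr2:168951000-168961500, was 70.1% ± 10.2 paternal in wild type, with 65.1 and 58.2% in B6/CAST, and 44.6% in matDKO/CAST. The peak inside Zfp64, chr2:168910500-168914500, was at 56.2% ± 11.0 and 46.4%. The value at the Smoc1 start was 62.7% ± 8.2 and 53.0%, and at Gab1 49.0% in both. Another H3K4me3 peak before the Smoc1 start, chr12:81017000-81022000, was 89.1% ± 10.4 paternal in wild type on 892 reads. Its matDKO/CAST value is not given here. At Meg3 the H3K4me3 share was 5.5% ± 1.1 and 5.9%. The H13 start, at 56.8% ± 7.1 in wild type, was at 7.2% in matDKO/CAST, where 129 or B6 sequence and the loss of oocyte methylation cannot be told apart. These are values of single peaks from 2 matDKO libraries, and no test was made.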
